A study of Homo sapiens with 2 samples.

Results

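Receptors for noradrenaline, opioid peptides, neuropeptide Y, neurotensin, endothelin and acetylcholine were compared between an enzalutamide-sensitive prostate cancer cell line and a resistant line selected from it. The 9 receptor genes ADRA2A, ADRB1, OPRK1, NPY1R, NTSR1, EDNRA, EDNRB, CHRM3 and CHRNA2 were chosen by family and matched to probe sets by gene symbol, with earlier results of these data known. Of the 9 genes, 8 had named probe sets, 18 in all, among 54675 probe sets and 19775 named genes. EDNRA was not analysed here. C4-2B is a human prostate cancer line, and C4-2B-MDVR was derived from it under prolonged exposure to enzalutamide, an inhibitor of the androgen receptor. Per the labels, both lines grew in the same serum-containing medium and neither was treated before RNA was taken. Each line was measured on 1 Affymetrix array, so every value below is a single measurement without a replicate, and no test of significance was possible. The free-text description of the resistant sample names a docetaxel-resistant line, TaxR, whereas its title, source and cell line labels name C4-2B-MDVR. The cell line label was followed, and each difference is the library labelled C4-2B-MDVR minus the one labelled C4-2B.

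Most of these receptors are membrane proteins that act through G proteins. Alpha-2 adrenergic, opioid and neuropeptide Y receptors couple mainly to inhibitory G proteins and lower cyclic AMP, beta adrenergic receptors couple to the stimulatory G protein and raise it, and neurotensin, endothelin and M3 muscarinic receptors act largely through the Gq class and phospholipase C. Nicotinic receptors differ in being ion channels opened by acetylcholine. Prostate tissue is supplied by autonomic nerves, and its smooth muscle and epithelium are known targets of noradrenaline, acetylcholine and endothelin.

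Deposited intensities had a median of 41.9 on the C4-2B array and 43.5 on the C4-2B-MDVR array. Without detection calls, each array's median was used as a floor, and a gene counted as above it when its brighter value reached the floor of that array. By this rule 13437 named genes were above the floor, with a median log2 difference of 0.04. Of 7 blood and endothelial markers, 4 passed as well and 3 did not. Those passing included CD3E (69.9 and 73.6), HBB (72.4 and 80.2) and VWF (80.4 and 73.6), with the sensitive line first. NTSR1 (53.1 and 58.0) and OPRK1 on the C4-2B-MDVR array (59.4) read below these values, and CHRNA2 (74.1 and 81.4) read close to them. Whether values at such levels reflect expression was not tested, for these genes or for other receptor genes named below at like levels. Where the dimmer value was under its floor, the fold is given as a bound against that floor. The arrays carried epithelial prostate markers: 6 of 8 listed luminal genes had named probe sets and all 6 were above the floor, among them HOXB13 at 1879 and 1950 and KRT18 at 4337 and 4038 in C4-2B and C4-2B-MDVR. KLK3, the gene for prostate-specific antigen, was at 8379 and 172 (−5.61) by the probe set that stands for it. A further probe set of KLK3 read 7753 and 102 (−6.24), and another read 292 and 229 (−0.35). The mean of its probe sets gave −4.07. In RNA of a whole culture, a change in the share of cells that express a gene and a change per cell cannot be told apart.

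ADRA2A was far higher in C4-2B-MDVR, OPRK1 was higher at a low level, and the remaining receptors were low on both arrays or nearly equal. Of the 8 genes, 4 were above the floor, namely ADRA2A, OPRK1, NTSR1 and CHRNA2. Measured differences were 2-fold or more for 2 of these, both higher in C4-2B-MDVR, and for 0 in the lower direction. Of all 13437 genes, 3.17% differed by 2-fold or more in the higher direction and 3.5% in the lower. The receptors were chosen with this contrast in view, so their count is a description. By bound, 1 of the 4 (ADRA2A) was at least 2-fold higher and 0 were at least 2-fold lower, against 2.76% and 3.14% of all genes.

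**Figure D1:**
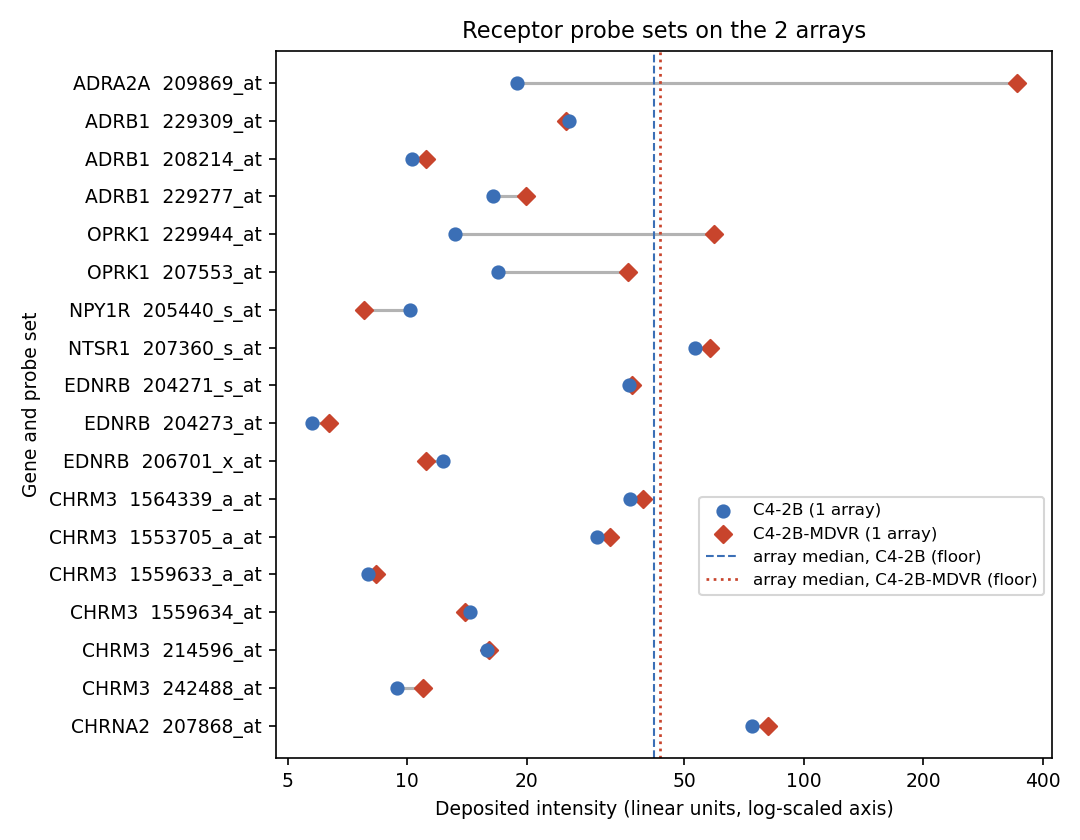
Deposited intensity (log-scaled axis) of each of the 18 receptor probe sets in C4-2B (circles) and C4-2B-MDVR (diamonds), 1 array each, with the array medians used as floors as vertical lines. The 209869_at probe set of ADRA2A crosses the floor from 18.9 to 345, and 229944_at of OPRK1 from 13.2 to 59.4, while 14 of the 18 probe sets lie under the floor on both arrays.

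ADRA2A encodes the alpha-2A adrenergic receptor, an inhibitory receptor for noradrenaline and adrenaline. Its probe set, 209869_at, read 18.9 in C4-2B, under the floor, and 345 in C4-2B-MDVR. These values lay at percentile 29.4 and percentile 86.6 of all probe sets on their arrays. The measured log2 difference was 4.19, and the fold was at least 8.24 against the C4-2B floor. Of the genes above the floor, 12 had a larger measured difference. Among 2822 genes with a mean log2 level within 0.5 of that of ADRA2A, the middle 95% of differences ran from −1.12 to 1.32, and 5 of these genes had a larger difference than ADRA2A. That spread holds real differences between the lines as well as array error, so it is no replicate error. ADRA2A had 1 probe set, so its value was not checked by another.

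The 250 bases before the start of ADRA2A are shown because this gene differed most, beside those of ADRB1, an adrenergic receptor gene on the same chromosome that was under the floor in both lines. Both sequences are from RefSeq on GRCh38.p14, plus strand, at chr10:111076779-111077028 for ADRA2A and chr10:114043616-114043865 for ADRB1. Capitals mark matches on either strand to any of 5 motifs. These were the GC box, spelled GGGCGG, the cyclic AMP response element, whose core was taken as TGACG and whose full form holds that core and is spelled TGACGTCA, the androgen response element core, spelled AGAACA, and the TATA box, spelled TATAAA.
ADRA2A: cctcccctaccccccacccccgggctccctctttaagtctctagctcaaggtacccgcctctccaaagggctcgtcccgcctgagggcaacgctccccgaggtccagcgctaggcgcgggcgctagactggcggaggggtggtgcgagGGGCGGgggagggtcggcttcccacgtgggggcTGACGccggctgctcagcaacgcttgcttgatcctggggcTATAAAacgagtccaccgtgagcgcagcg
ADRB1: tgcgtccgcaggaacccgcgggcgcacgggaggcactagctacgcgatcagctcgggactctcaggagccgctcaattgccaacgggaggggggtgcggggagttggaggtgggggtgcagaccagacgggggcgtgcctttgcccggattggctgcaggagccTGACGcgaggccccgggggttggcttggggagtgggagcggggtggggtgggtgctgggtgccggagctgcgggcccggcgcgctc

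The ADRA2A window held 1 GC box, 1 cyclic AMP element core and 1 TATA box, the last ending 23 bases before the start, and these matches did not overlap. The ADRB1 window held 1 cyclic AMP element core, ending 81 bases before the start, with no GC box and no TATA box by these letters. Neither window held the full cyclic AMP response element or the androgen element core. Of 35116 RefSeq windows of this length, 42.6% held a GC box, 21.2% the cyclic AMP element core, 10.7% a TATA box, 12.4% the androgen element core and 1.65% the full cyclic AMP element. Both windows were rich in G and C (68.8% in ADRA2A and 72.8% in ADRB1, against a median of 58% over all windows), with 22 and 24 CpG dinucleotides against a median of 11. These matches describe letters only, and no binding or methylation was measured.

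ADRB1 encodes the beta-1 adrenergic receptor, which raises cyclic AMP and is best known in the heart. Its 3 probe sets were under the floor on both arrays. The brightest, 229309_at, read 25.6 in the C4-2B line and 25.1 in C4-2B-MDVR, and the others read 16.5 and 19.95, and 10.3 and 11.1. At these levels no fold is given. Of the 9 adrenergic receptor genes 8 had named probe sets, and 4 were above the floor. ADRA2B, which encodes the alpha-2B receptor, read 59.1 and 69.5 (log2 difference 0.23). ADRA2C, for the alpha-2C receptor, read 47.8 and 50.01 (0.07), and ADRA1B, for the alpha-1B receptor, read 68.5 on both arrays. ADRA2A was therefore the 1 adrenergic receptor gene of the 4 with a 2-fold or larger difference, and ADRA2B and ADRA2C were within 2-fold. ADRA2B, ADRA2C and ADRA1B read below the blood and endothelial markers CD3E, HBB and VWF on both arrays. Whether these readings reflect expression was not tested.

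OPRK1 encodes the kappa opioid receptor, an inhibitory receptor for dynorphins. Probe set 229944_at read 13.2 in the C4-2B line and 59.4 in C4-2B-MDVR, which is a measured log2 difference of 2.17. The C4-2B value was under the floor, and the bound was at least 1.42-fold. The other probe set, 207553_at, read 16.9 and 35.9, higher in C4-2B-MDVR as well but under the floor on both arrays. Both probe sets were thus brighter in C4-2B-MDVR, at levels where the floor allows little to be said about size. Among 2848 genes of similar mean level the middle 95% of differences ran from −0.58 to 0.89, and 9 genes exceeded OPRK1. That set was drawn from all named genes, and the mean level of OPRK1 is itself under the floor. It therefore took in genes under the floor on both arrays, and its spread is no guide to differences above the floor.

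Of the 4 opioid receptor genes, 3 were above the floor. OPRL1, the nociceptin receptor gene, read 64.2 and 76.0 (log2 difference 0.24). OPRD1, for the delta receptor, read 47.6 and 44.2 (−0.11), and OPRM1, for the mu receptor, was under the floor at 21.8 and 23.8. A difference of 2-fold or more was measured for OPRK1 and for 0 of the other two above the floor. PDYN, which encodes the dynorphin precursor, was under the floor at 22.9 and 26.0, and the enkephalin precursor gene PENK read 72.1 and 79.6 (0.14).

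NPY1R encodes the Y1 receptor for neuropeptide Y, which lowers cyclic AMP. Its 1 probe set was at 10.1 in the C4-2B line and 7.77 in C4-2B-MDVR, at percentiles 13.2 and 6.08 of the arrays. NPY2R (22.8 and 21.8) and NPY5R (16.3 and 12.9), further receptors of the family, were under the floor too, as was the ligand gene NPY (27.4 and 36.1). With 0 of 3 named genes of this family above the floor, no comparison between the lines was detectable.

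NTSR1 encodes the high-affinity neurotensin receptor, which acts through Gq. It read 53.1 and 58.0, so the log2 difference was 0.13, above the floor by a small margin on both arrays. Genes of similar level had a median difference of 0.10, and the middle 95% ran from −0.96 to 1.18. The NTSR1 difference lay near the middle of that set, which was drawn from all named genes and could take in some under the floor. Of the ligand side, NTS, which encodes neurotensin, read 36.4, under the floor, and 142, a measured log2 difference of 1.96 and a bound of at least 3.39-fold. NTSR2, the second receptor of this ligand, was under the floor at 19.6 and 17.8.

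EDNRB encodes the endothelin B receptor. Its 3 probe sets were under the floor on both arrays: 204271_s_at read 36.2 and 36.9, 206701_x_at 12.3 and 11.1, and 204273_at 5.74 and 6.34. Among the ligand genes, EDN2 (endothelin-2) was above the floor at 68.7 and 128, a log2 difference of 0.90. EDN1 (40.4 and 39.8) and EDN3 (21.1 and 19.99) were under it. The endothelin-converting enzyme genes ECE1 (186 and 218, log2 difference 0.23) and ECE2 (297 and 255, −0.22) were within 2-fold.

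CHRM3 encodes the M3 muscarinic receptor, the Gq-coupled acetylcholine receptor of glands and smooth muscle. All 6 of its probe sets were under the floor on both arrays. The brightest, 1564339_a_at, read 36.4 and 39.2, and over the 6 the values ran from 7.96 to 36.4 in C4-2B and from 8.32 to 39.2 in C4-2B-MDVR. CHRM4 was the 1 muscarinic gene of 5 above the floor, at 61.2 and 61.7 (log2 difference 0.01).

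CHRNA2 encodes the alpha-2 subunit of neuronal nicotinic receptors. It read 74.1 and 81.4, above the floor on both arrays, and the log2 difference was 0.14. Genes of similar level had a median difference of 0.11. Of the 16 nicotinic subunit genes, 14 had named probe sets, 8 were above the floor and 0 were 2-fold or more apart by the probe set that stands for each gene. By that probe set CHRNA5, the alpha-5 subunit gene, differed most, from 175 to 274 (0.64). Probe sets of CHRNA3, the alpha-3 subunit gene, did not read alike: the one that stands for it read 60.6 and 68.9 (0.18), and another read 23.997 and 84.5, at least 2.02-fold higher in C4-2B-MDVR.

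**Figure D2:**
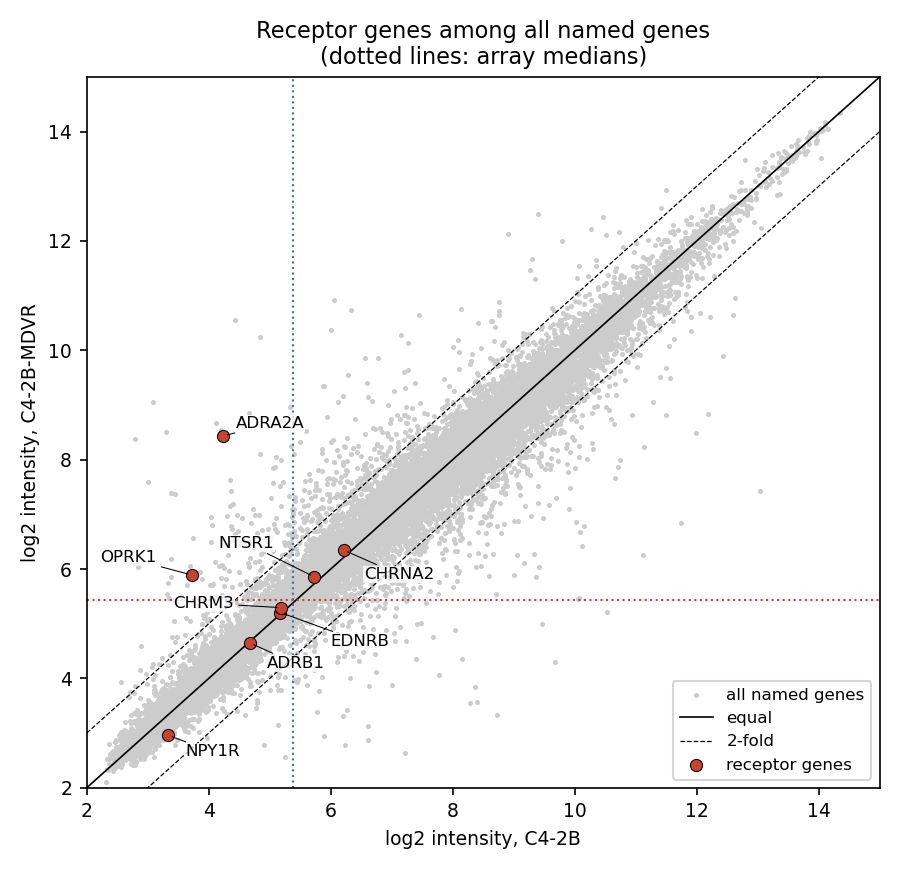
log2 intensity in C4-2B-MDVR against C4-2B for all 19775 named genes (grey) and the 8 receptor genes (red), with the line of equal values, the 2-fold lines and the array medians. ADRA2A (4.19) and OPRK1 (2.17) lie above the 2-fold line and left of the C4-2B median, and the other 6 lie between the 2-fold lines.

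The genes whose values on the 2 arrays lay closest to those of each receptor were found among 12332 protein-coding genes above the floor. For ADRA2A these were TOX3 (19.5 and 332) and LAMB1 (18.4 and 373), with log2 differences of 4.09 and 4.34, and for OPRK1 ETNPPL (2.12) and TMLHE (2.09). For NTSR1 they were NKX2-1 and GFI1B, and for CHRNA2 PTAFR and POU2AF2. With 2 arrays, closeness means a like pair of values and no more.

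Across the 7 receptor families, 37 of 43 listed genes had named probe sets and 17 were above the floor. Besides ADRA2A and OPRK1, 0 of these were 2-fold or more apart by the probe set that stands for each gene, and another probe set of CHRNA3, given above, was. The 13 that are not among the receptors described ranged from −0.11 to 0.64, with a median of 0.05 against 0.04 over all genes above the floor. Receptors for other amines (dopamine, serotonin, histamine) held 9 genes above the floor, with 0 beyond 2-fold. Those for other peptides held 24, of which BDKRB2, the bradykinin B2 receptor gene, was 2-fold or more higher (48.7 and 99.8, log2 difference 1.04). Its difference was 0.98 after median centring and 0.96 after loess scaling, under 2-fold. TACR2, a tachykinin receptor gene, was at 0.52.

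**Figure D3:**
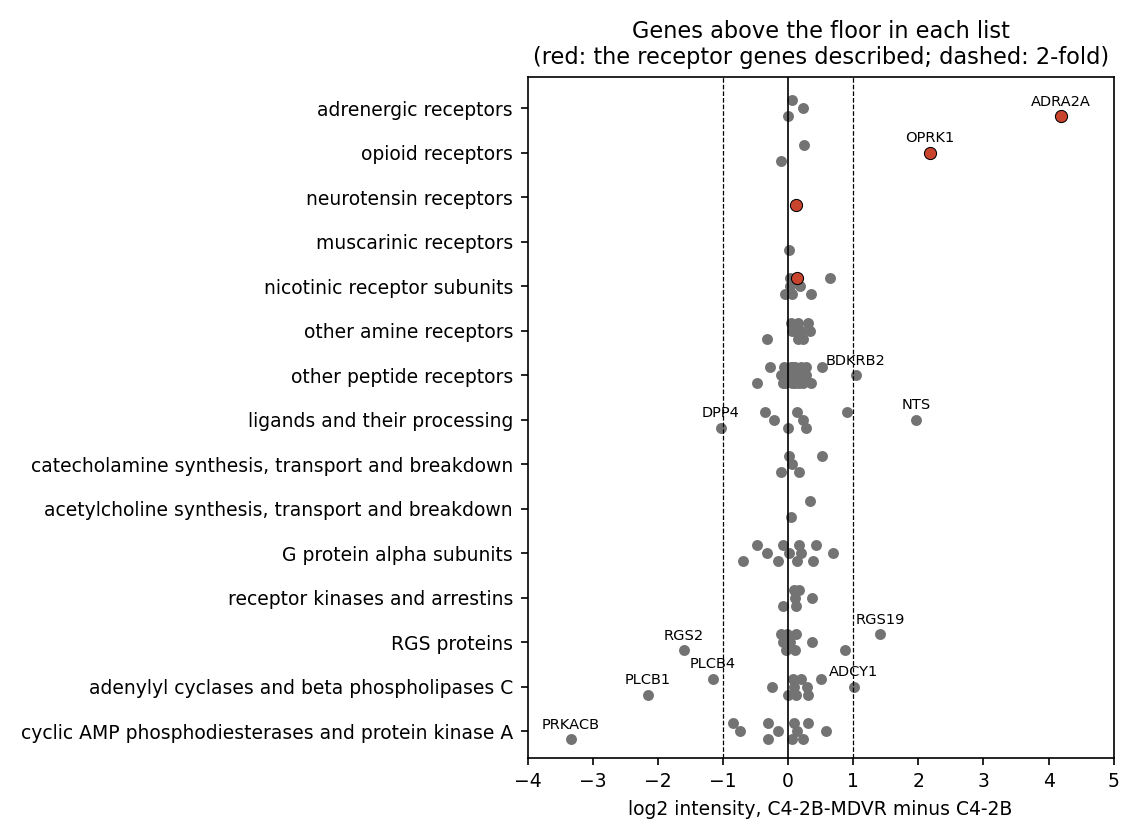
log2 difference (C4-2B-MDVR minus C4-2B) of every gene above the floor in the receptor, ligand and signalling lists, 1 point a gene from the probe set that stands for it, with the receptors described in red and names for genes 2-fold or more apart. ADRA2A and OPRK1 stand outside the 2-fold lines among their receptor families, and BDKRB2 (1.04) does among receptors for other peptides. PRKACB (−3.34) is lowest among the signalling genes.

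Ligand genes and enzymes of the transmitters were mostly within 2-fold. Of 14 listed ligand and ligand-processing genes with named probe sets, 9 were above the floor. NTS was 2-fold or more higher and DPP4 2-fold or more lower. For all genes above the floor the shares were 3.17% higher and 3.5% lower. DPP4, a peptidase that trims neuropeptide Y, read 722 and 352 (−1.04), and its 3 probe sets ranged from −1.74 to −1.04. After quantile normalization it was at −0.96, under 2-fold. Of genes for catecholamine synthesis, transport and breakdown, 5 were above the floor and 0 were beyond 2-fold. MAOA, a monoamine oxidase that breaks down noradrenaline, was highest at 0.53 (1791 and 2578). ACHE, the acetylcholinesterase gene, was at 0.33 (68.2 and 86.0).

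The G proteins through which these receptors signal were within 2-fold by the probe set that stands for each gene: 12 of 13 alpha subunit genes were above the floor, from −0.69 to 0.68. Another probe set of GNAQ, the alpha-q subunit gene, read 47.997 and 22.1, with the second value under the floor, which leaves a bound of at least 1.10-fold lower. A further GNAQ probe set above the floor read 51.8 and 57.7 (0.16). Of the inhibitory subunits, GNAI1 read 1057 and 759 (−0.48), GNAI2 211 and 276 (0.39) and GNAI3 1394 and 1562 (0.16). The stimulatory subunit gene GNAS read 7110 and 11418 (0.68), and its 10 probe sets above the floor ran from 0.06 to 0.73. GNA11, of the Gq class, read 1004 and 623 (−0.69), with all 6 of its probe sets between −0.99 and −0.49. Receptor kinases and arrestins, which switch receptors off, held 6 genes above the floor and 0 beyond 2-fold.

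Further down the pathway some genes differed by more than the G protein genes did. Of 12 phosphodiesterase and protein kinase A genes above the floor, 1 was 2-fold or more lower and 0 higher by the probe set that stands for each gene. PDE3B, which encodes a cyclic nucleotide phosphodiesterase, read 119.9 and 97.1 (−0.30) by that probe set and 129.4 and 61.3 (−1.08) by another. Of 12 adenylyl cyclase and phospholipase C genes, 2 were lower and 1 higher by that measure, and of 11 RGS genes 1 each way. Over all genes above the floor the shares were 3.17% higher and 3.5% lower. With lists this small, no excess over those shares is claimed. PRKACB, which encodes a catalytic subunit of the cyclic AMP-dependent protein kinase, read 4636 and 459 in the sensitive and resistant lines, a log2 difference of −3.34, and its 3 probe sets ranged from −3.95 to −3.34. PRKACA, the other catalytic subunit gene listed, read 186 and 194 (0.06). PLCB1, a phospholipase C that Gq activates, read 88.4 and 19.9, the latter under the floor, so it was at least 2.03-fold lower, while its other probe sets were under the floor. With the mean of its probe sets the difference was −0.75, under 2-fold. PLCB4 read 411 and 184 (−1.16), with its other probe set at −0.92. ADCY1, an adenylyl cyclase gene, was at 1.01 (70.6 and 142), and at 0.59 in its other probe set above the floor. It was under 2-fold after median centring, after loess (0.96) and with the mean of its probe sets (0.35). Among RGS genes, which shorten G protein signals, RGS19 was at 1.41 (86.6 and 230) and RGS2 at −1.60 (72.0 and 23.8), which the floor bounds at 1.66-fold lower or more.

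Genes on either side of each receptor gene were described from the gene order of RefSeq, taking the 5 nearest protein-coding genes above the floor in each direction. Around ADRA2A on chromosome 10, the 10 neighbours had a median difference of 0.04 and ran from −0.43 to 1.94. SHOC2 (0.04) and GPAM (−0.42) were nearest, and DUSP5 (1.94, by a bound of at least 1.83-fold) was the 1 beyond 2-fold. The 10 neighbours of OPRK1 had a median of −0.06, and SNAI2 (−3.12, at least 2.97-fold lower by bound) was the 1 beyond 2-fold. Of these 20 neighbours, 18 were within 2-fold, as were 12541 of all 13437 genes above the floor.

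Around EDNRB on chromosome 13 all 10 neighbours were lower, from −3.05 to −0.05 with a median of −1.05. Of the 10, 5 were lower by 2-fold or more and 4 were so by bound, among them MYCBP2 (−2.43, from 966 to 179), and SLAIN1 (−1.19) and OBI1 (−1.11), which were nearest. EDNRB was itself under the floor in C4-2B, where a drop could not be measured. Around NPY1R on chromosome 4, 9 of 10 neighbours were below 0, with a median of −0.74, 4 were 2-fold or more lower and FSTL5 (5.59) was higher by at least 7.98-fold. Neighbours of NTSR1 (median 0.13), CHRM3 (0.09), CHRNA2 (−0.01) and ADRB1 (−0.33) had at most 1 gene each beyond 2-fold. For comparison, 7409 of all 13437 genes above the floor had a difference above 0. Of the same genes, 3.5% were 2-fold or more lower, 3.14% were so by bound, and 3.17% were 2-fold or more higher.

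**Figure D4:**
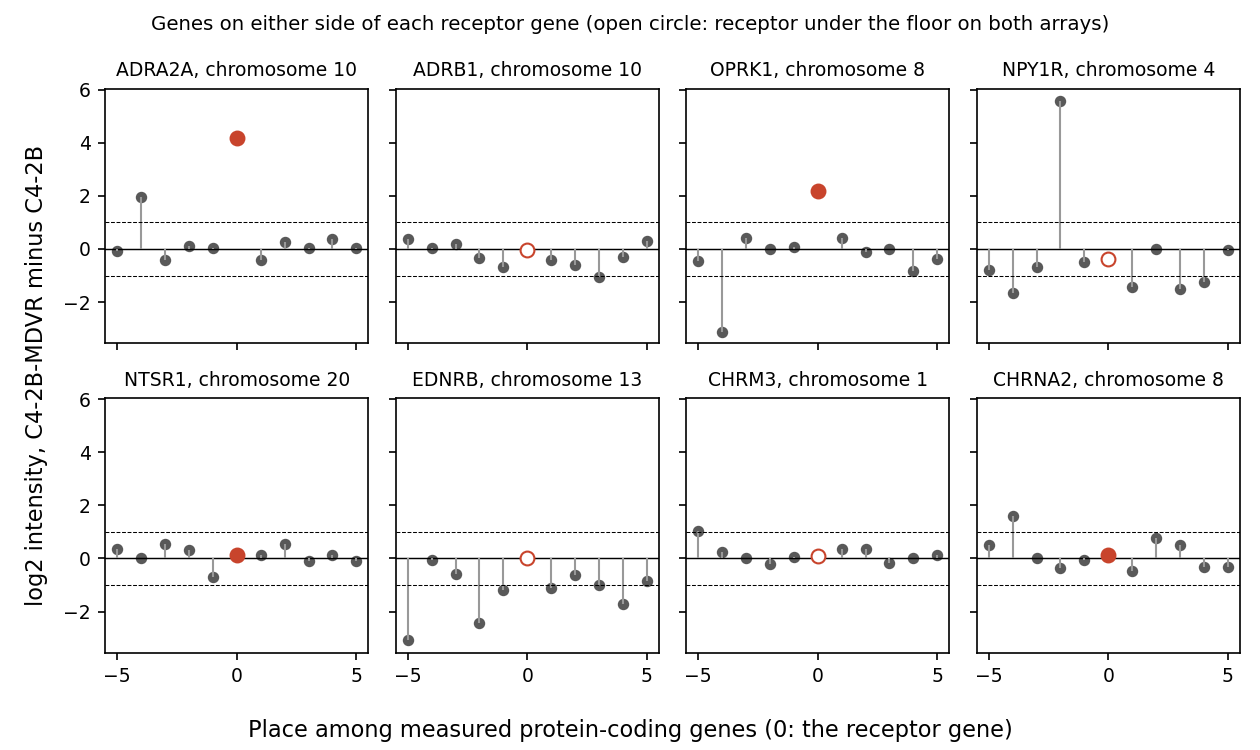
log2 difference (C4-2B-MDVR minus C4-2B) of each receptor gene (red at place 0, open where it was under the floor on both arrays and its value has no order) and of the 5 measured protein-coding genes on each side, by place in gene order. All 10 neighbours of EDNRB lie below 0, and 9 of 10 do around NPY1R, whereas the neighbours of ADRA2A have a median of 0.04. Of all 13437 genes above the floor, 7409 lie above 0.

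Markers of other cell types were within 2-fold by the probe set that stands for each gene, with the exception of ENO2. Of 7 blood and endothelial markers 4 were above the floor, from −0.13 to 0.21, and their summed intensity over all 7 was 330 and 348. Of 8 fibroblast and smooth muscle markers 4 were above the floor, from −0.23 to 0.20, with sums of 508 and 473, though other probe sets of COL1A1 reached 1.20. Of 9 named markers of neuroendocrine cells, which make many neuropeptides, 4 were above the floor. ENO2 was higher (33.2 and 231, at least 5.52-fold), while SYP (48.4 and 38.1) and NCAM1 (64.5 and 67.95) were within 2-fold, and the summed intensity of the 9 was 2199 and 2485. Most of that sum was DDC (2001 and 2092), the gene for an enzyme of dopamine and serotonin synthesis, and the other 8 summed to 197 and 393. The rise in this smaller sum was that of ENO2 and not of the markers as a group. CHGA, CHGB, INSM1, SCG2 and SCG3 were under the floor on both arrays. The part of other cell types in the ADRA2A and OPRK1 values was not tested.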

How the data were processed

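RNA from 1 culture sample of each line was amplified, labelled with biotin and put on Affymetrix arrays, as the labels' protocols state. The authors deposited 1 intensity per probe set, linear in scale by its range. How the intensities were corrected, normalized and summarized is not given in the sources used here. Their log2 was taken with no further scaling. Of 54675 probe sets, 41097 carry 1 gene symbol in the platform annotation of 2016, 1801 several and 11777 are unnamed here. Of the single-symbol probe sets 41043 matched RefSeq by Entrez identifier, with 0 symbols changed. Those with several symbols were not assigned to a gene, and suffixes _s_at, _x_at and _a_at mark sets that can match more than 1 transcript.

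The probe set with the highest mean of both arrays stood for a gene. The floor was each array's median (log2 5.39 in C4-2B, 5.44 in C4-2B-MDVR), and a call needed 2-fold or more. Levels of different probe sets carry effects of the probes themselves, which sums and orders of level here do not remove. With 1 array a line there is no SE, SD or p-value, so the array number sets the precision. Members, 21 gene lists and alternatives were chosen with earlier results of these data known. Named genes were all members, up to 3 genes of each list with the largest difference, the 2 genes nearest each member in value, and neighbours in gene order, and any other gene was picked with its values seen. The alternatives covered scaling (median centring, quantile, loess with a span of 0.3), other ways to choose probe sets, floors and thresholds. The scalings and the fold calls were tested on simulated data, and the bounds, local spreads, neighbours and motif matches were not. Python 3.11.15, numpy 2.4.6, pandas 2.3.3, statsmodels 0.14.6 and matplotlib 3.10.9 were used.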

Additional observations from a re-analysis of the deposited data

How the results depend on the processing

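The count of 2 receptor genes 2-fold or more higher was 1 with the floor at the 75th percentile and 1 with dim values set to the floor, since OPRK1 was lost each time, and it was 2 under the other 10 alternatives. The count of 0 lower held under all 12. ADRA2A ranged from 4.13 to 4.21 over the 3 scalings and was 3.04 with values raised to the floor. OPRK1 ranged from 2.10 to 2.12 over the scalings and was 0.50 with values raised to the floor. NTSR1 (0.05 to 0.07) and CHRNA2 (0.07 to 0.11) kept their sign over the scalings. Over all lists 13 genes were 2-fold or more apart, and 11 to 12 under 5 alternatives. Of these, an alternative added after the data were seen, ADCY1 fell to 0.35 and PLCB1 to −0.75 with the mean of their probe sets, RGS2 to −0.73 with values raised to the floor, DPP4 to −0.96 with quantile normalization and BDKRB2 to 0.96 at the lowest scaling. Of the receptor genes, 7 were above a floor at the 25th percentile and 1 above that at the 75th. Signal over background limits ADRB1, NPY1R, EDNRB and CHRM3, which could show neither a drop nor a rise that stays under the floor. No paired analysis was possible because each line has 1 array.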
